A study of Mus musculus with 18 samples.

Results

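The genes described here are the 46 cell cycle and DNA replication genes of a fixed list, chosen as every mRNA array probe whose transcript identifier maps to a listed symbol. All 46 were on the array, out of 32451 named genes, and 43 passed the filter on dim probes, out of 24806. The study measured liver RNA of 6-week-old male C57BL/6 mice that had been fasted for 12 h and were killed 48 h after a single dose by gavage. The control group received saline, and the treated groups received monocrotaline (MCT), a pyrrolizidine alkaloid that the liver turns into a reactive, DNA-binding pyrrole, at 270 mg/kg (MCT 270) or 330 mg/kg (MCT 330). No group carries an engineered allele, and all 3 shared the strain, the sex, the fast and the time of killing. The labels give 8 mice per treatment group and 3 mRNA arrays per group. Since this is whole liver, fewer cells of a type and less RNA per cell cannot be told apart.

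Adult hepatocytes are almost all resting and re-enter the cycle after injury. In G1, D-type and E-type cyclins with their kinases free E2F factors from the retinoblastoma protein, and E2F targets load the MCM helicase onto origins, a step called licensing. From late S phase on, the B-MYB and FOXM1 complexes turn on a later set of genes, the mitotic cyclins, kinases and spindle proteins, so that the early and the late set mark different stages of the same cycle. Stressed cells can hold this sequence at checkpoints through p53 and its target p21, the product of Cdkn1a.

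Values are log2 array intensities minus the 75th percentile of their own array, so that 0 is the level of a probe at that percentile. The 9 arrays did not behave as 9 independent samples. Replicates 2 and 3 of each group, read at the same slide position in another scan, differed by no more than repeated spots of a probe do (ratio to the spot noise 0.574 to 0.995 over the 5 averaged pairs), and so did replicate 1 of MCT 330. They were averaged into 2 control samples (replicate 1, called the first, and the mean of replicates 2 and 3, the second), 2 MCT 270 samples (likewise) and 1 MCT 330 sample. The spread of that single sample is taken from the other groups, so that no value at MCT 330 has a replicate of its own. All MCT 330 arrays were in scans that held no control, so the scan and this dose cannot be told apart. Of the 24806 genes the median difference from control was -0.02 at MCT 270 and -0.25 at MCT 330. The latter was -0.05 after quantile normalization and -0.03 after normexp, and the called genes split into 2358 higher and 5942 lower, against 3077 and 4357 after quantile normalization and 3698 and 3967 after normexp. All 8 hepatocyte markers were detected, with a summed level of 1466 to 1691 times the 75th percentile in the control arrays, 1259 to 1658 at MCT 270 and 1112 to 1207 at MCT 330. At MCT 330 all 8 had a negative difference from control and 2 were called lower, where 24% of all genes were.

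The members differed by role. At MCT 330 6 of the 11 licensing genes rose, 4 of them subunits of the MCM ring, and Mcm10 of the same role fell. Tk1 and Tyms of nucleotide supply fell, as did the brightest probe of Cdk4. Of the 19 mitotic and spindle genes tested Ccnb1 and Kif11 fell and the rest did not pass, in a set whose controls lay far apart. By limma with Benjamini-Hochberg adjustment, 6 of the 43 members tested rose at MCT 330, where 9.51% of all genes did, and 6 fell, where 24% of all genes did. The members split into 9 higher and 3 lower after quantile normalization and 8 and 4 after normexp. Cdc6 and Orc1 were read well above background on no control array, and Kif11 on 2 of 3 arrays at each dose. Of the other 40 members, well above background on all 9 arrays, 5 rose and 5 fell, against 8.84% and 25.3% of such genes. The members' median difference at MCT 330 was -0.83, against -0.25 over all genes. At MCT 270 no member and no gene of the array passed (0% in either direction). At an unadjusted p under 0.05, 5 members were higher and 8 lower at MCT 270, where 9.81% of all genes were higher and 8.78% lower, and the members' median was -0.23 against -0.02. The choice of noise unit decides these counts. With the 9 arrays taken as separate samples, 9 members were higher and 19 lower at MCT 270 (18.9% and 19.9% of all genes), and 14 and 24 at MCT 330 (25.8% and 47.4%). With the scan as a block over the control and MCT 270 arrays, 5 members were higher and 4 lower at MCT 270 (9.71% and 9.36% of all genes), and within the scan that holds both groups 0 members and 0 genes passed.

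**Figure D1:**
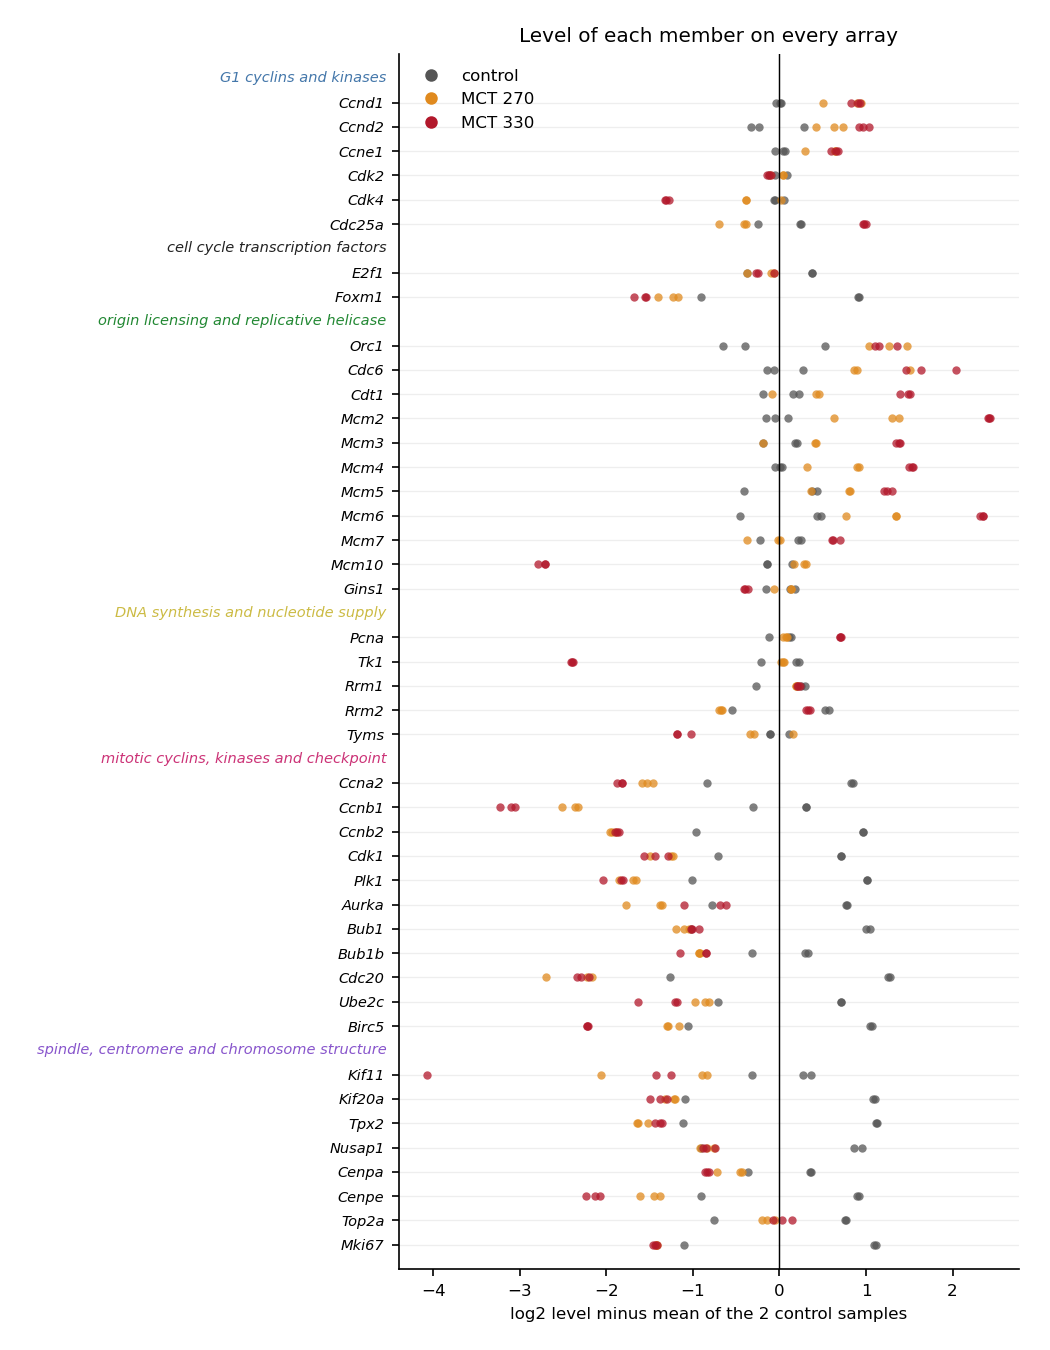
Difference on the log2 scale (x axis) between each of the 9 arrays and the mean of the 2 control samples, for the 43 members tested (y axis, by role). Each point is an array, grey for control, orange for MCT 270 and red for MCT 330. The licensing genes lie to the right of the controls at MCT 330 except Mcm10 and Gins1, and the grey points of the mitotic genes lie far apart.

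All members that rose belong to origin licensing. CDC6 and CDT1 load the MCM2-7 ring, the motor of the replicative helicase, onto origins that the ORC complex marks. Of the 9 genes of this role that were well above background on all arrays, 5 rose at MCT 330 and 1 fell, against 8.84% and 25.3% of such genes, and their median difference was 1.37 at MCT 330 and 0.23 at MCT 270. In 8 of the 9 the difference at MCT 270 was positive, but 0 passed. In 7 of the 9 all MCT 330 arrays lay above all control arrays, as they did in 28.9% of such genes. The other called gene of the role, Cdc6, passed the filter on dim probes through its MCT 330 arrays alone, so its call is a description and adds no support. Mcm2 was at -2.51 and -2.71 in the 2 control samples, at -1.98 and -1.27 in the 2 MCT 270 samples and at -0.19 in the MCT 330 sample. It was lowest in the controls, between at MCT 270 and highest at MCT 330, with no overlap. Its difference from control was 0.99 ± 0.28 (SE) at MCT 270 (adjusted p = 0.19) and 2.42 ± 0.35 at MCT 330 (adjusted p = 0.0126). Mcm6 was at 1.04 and 1.95 in the controls, 2.27 and 2.85 at MCT 270 and 3.84 at MCT 330. Its groups also followed the dose with no overlap, and the difference at MCT 330 was 2.34 ± 0.47 (adjusted p = 0.0237), after 1.06 ± 0.38 at MCT 270 (adjusted p = 0.251).

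The order control, MCT 270, MCT 330 without overlap of any sample was found in 3 of these 9 licensing genes, against 9.69% of genes well above background on all arrays. Mcm4, another ring subunit, was the third: it was at -0.94 and -0.96 in the controls, -0.63 and -0.04 at MCT 270 and 0.57 at MCT 330, a rise of 1.52 ± 0.30 at MCT 330 (adjusted p = 0.0224). Cdc6 was not well above background on any control array and was on 1 of 3 at MCT 270. Its measured means were -6.75, -5.71 and -5.03 in the 3 groups. Counted against the dimmest probe well above background on each control array, it was 1.27-fold higher at MCT 330 (limma adjusted p = 0.0115, with the limit given above). That size is approximate, since a probe not well above background can lie above that level. After normexp, which shrinks dim probes, its difference was 0.37 (adjusted p = 0.0664).

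Cdt1, the partner of CDC6, and Mcm3 also rose at MCT 330. Cdt1 was at -1.16 and -0.77 in the controls, -1.05 and -0.53 at MCT 270 and 0.50 at MCT 330. An MCT 270 sample lay within the controls' range and the other just above it, and the MCT 330 sample was far above, with a difference of 1.46 ± 0.32 (adjusted p = 0.0284). Mcm3 was at -1.02 and -0.64, at -1.02 and -0.41, and at 0.54, a difference of 1.37 ± 0.34 at MCT 330 (adjusted p = 0.0384). Both calls rest on the first control sample: without it the differences were 1.27 (adjusted p = 0.0613) and 1.18 (adjusted p = 0.0859).

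The other ring subunits and the origin marker did not pass. Mcm5 was at -2.56 and -1.75 in the controls and at -0.90 at MCT 330, a difference of 1.25 ± 0.41 (adjusted p = 0.0757), and Mcm7 differed by 0.64 ± 0.30 (adjusted p = 0.159). Mcm7 had the opposite sign at MCT 270, -0.19 ± 0.24 (adjusted p = 0.703). Orc1, the largest ORC subunit, was not well above background on any control array but was on all 6 treated arrays. It was at -5.93 and -6.99 in the controls, -5.20 and -5.20 at MCT 270 and -5.26 at MCT 330. Counted as for Cdc6, it was 1.13-fold higher at MCT 270 (limma adjusted p = 0.197) and 1.09-fold at MCT 330 (adjusted p = 0.106). Gins1, a subunit of the GINS complex that completes the helicase, differed by -0.39 ± 0.23 at MCT 330 (adjusted p = 0.255).

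**Figure D2:**
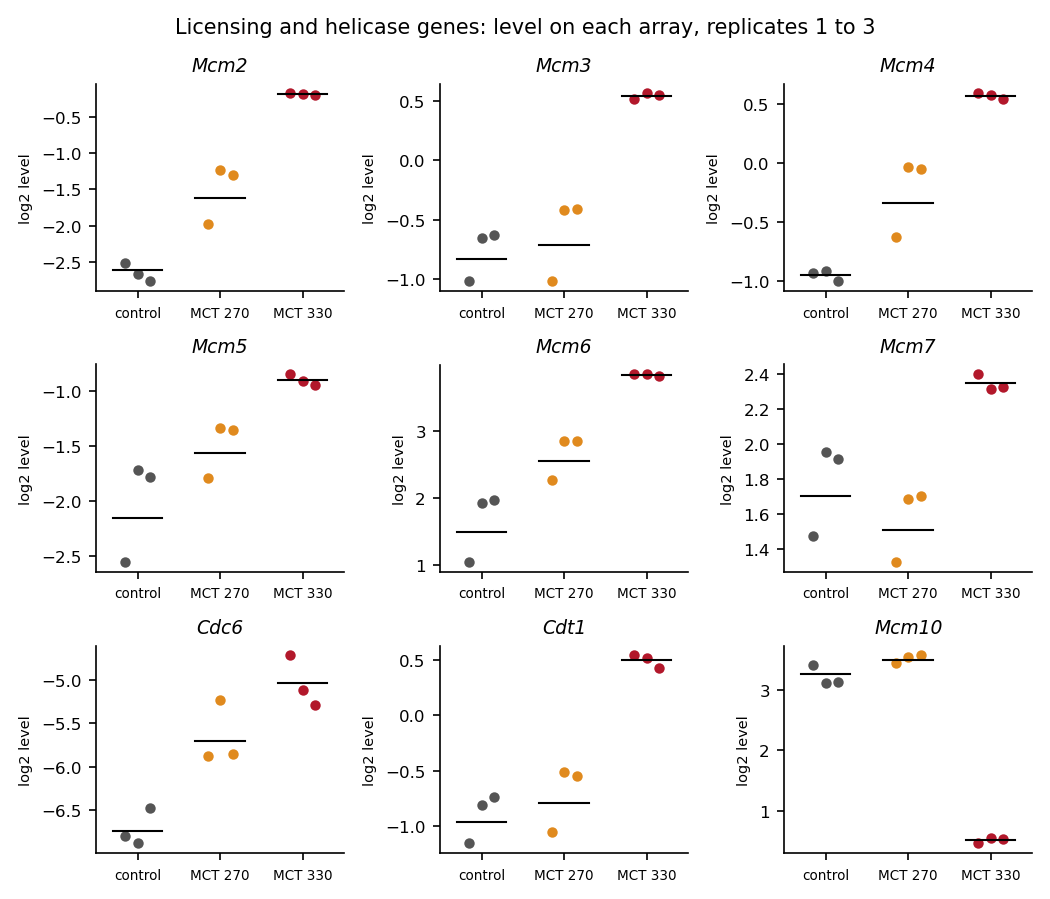
Log2 level relative to the 75th percentile of the array (y axes, each panel with its own range) of 9 licensing and helicase genes on the 3 arrays of each group. Points are replicates 1, 2 and 3 from left to right and bars are group means over samples. The MCT 330 arrays are highest in the panels of Mcm2 to Mcm7 and Cdt1 and lowest in that of Mcm10, and in that of Cdc6 replicate 3 of MCT 330 lies just below replicate 2 of MCT 270.

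Mcm10, which joins the helicase when origins fire, went the other way. It was at 3.40 and 3.12 in the controls, 3.43 and 3.56 at MCT 270 and 0.52 at MCT 330. The MCT 270 arrays lay just above the control arrays and the MCT 330 arrays far below, with a fall of 2.74 at MCT 330 (SE 0.22, adjusted p = 0.00872). The difference between the doses was -2.97 ± 0.22 (adjusted p = 0.0204), and Mcm10 fell at MCT 330 under all 19 alternatives in which it could be fitted. It is measured by a single probe.

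Licensing genes are known E2F targets, and their promoters were searched for the E2F site spelled TTTCCCGC, TTTCGCGC, TTTGCCGC or TTTGGCGC on either strand. Of the 46 members, 36 had an entry in the RefSeq promoter table (build GRCm38.p6, 250 bases before to 50 after the start of the gene). The site was in 7 of 9 licensing promoters (Orc1, Cdc6, Cdt1, Mcm3, Mcm5, Mcm6 and Mcm7), in 2 of 5 of the G1 cyclins and kinases, in 0 of 5 of nucleotide supply and in 1 of 16 of the mitotic and spindle genes, against 2.6% of the 27025 genes in the table. In the narrower window of 100 bases before to 50 after, it was in 5 of 9 licensing promoters and 1.45% of all genes. Promoters of the role are shown from 150 bases before to 30 after the start: Mcm6, chr1:128359676-128359855 (minus strand), which holds 3 E2F matches and rose, Cdc6, chr11:98908001-98908180 (plus strand), with 1, and Mcm10, chr2:5012762-5012941 (minus strand), with 0, which fell. Mcm10 was set by the rule of largest change in its role, and Mcm6 and Cdc6 were chosen after their values were seen. Capitals mark E2F matches and CCAAT boxes (CCAAT or ATTGG).
Mcm6: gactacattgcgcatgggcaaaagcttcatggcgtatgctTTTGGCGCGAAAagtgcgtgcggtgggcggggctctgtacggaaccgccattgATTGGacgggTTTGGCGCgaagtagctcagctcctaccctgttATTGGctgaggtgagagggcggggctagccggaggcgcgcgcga
Cdc6: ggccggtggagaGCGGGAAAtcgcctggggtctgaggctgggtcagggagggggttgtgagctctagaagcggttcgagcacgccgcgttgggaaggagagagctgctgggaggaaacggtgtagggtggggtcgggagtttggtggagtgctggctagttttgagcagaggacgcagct
Mcm10: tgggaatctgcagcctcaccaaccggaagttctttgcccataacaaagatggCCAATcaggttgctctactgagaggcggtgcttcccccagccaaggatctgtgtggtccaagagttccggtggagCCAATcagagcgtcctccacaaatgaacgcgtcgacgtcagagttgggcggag
Besides the E2F matches of Mcm6 and Cdc6, Mcm6 and Mcm10 each hold 2 CCAAT boxes, a motif found in 41.1% of all promoters. Of the 6 licensing genes that rose, Mcm2 holds no E2F match of these spellings, and Mcm4 is not in the table.

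In DNA synthesis and nucleotide supply 2 of 5 genes fell at MCT 330, against 24% of all genes, and 0 rose. Tk1, thymidine kinase of the salvage route to dTTP, was at 2.92 and 3.34 in the controls, 3.18 and 3.16 at MCT 270 and 0.73 at MCT 330. The MCT 270 samples lay between the controls and the MCT 330 sample far below, with a difference of 0.04 ± 0.20 at MCT 270 (adjusted p = 0.933) and a fall of 2.40 at MCT 330 (SE 0.25, adjusted p = 0.00877). Tyms, thymidylate synthase of the de novo route to the same nucleotide, was at 4.26 and 4.03, 4.30 and 3.83, and 3.02. Its fall of 1.13 (SE 0.28, adjusted p = 0.0384) passed under 12 of 19 alternatives: without the first control sample it was -1.02 (adjusted p = 0.084), without the second -1.24 (adjusted p = 0.0535), without either MCT 270 sample -1.13 (adjusted p = 0.0541), and after quantile normalization -0.91 (adjusted p = 0.0903).

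The promoter of Tk1, chr11:117825985-117826164 (minus strand), is shown as the gene of this role with the largest change. None of the E2F, CHR or CCAAT spellings used here is in this stretch, so it has no capitals.
Tk1: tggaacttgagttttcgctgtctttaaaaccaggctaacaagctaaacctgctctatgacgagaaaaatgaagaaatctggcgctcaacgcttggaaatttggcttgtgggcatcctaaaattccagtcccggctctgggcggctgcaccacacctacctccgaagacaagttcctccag
Whether the motifs shown here and above bear on the changes was not tested.

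The remaining genes of this role did not pass. Pcna, the sliding clamp of the DNA polymerases, was at 1.81 and 2.05 in the controls, 1.97 and 2.01 at MCT 270 and 2.64 at MCT 330, a difference of 0.71 ± 0.21 (adjusted p = 0.0587). All MCT 330 arrays lay above the controls, and after quantile normalization the difference of 0.79 passed (adjusted p = 0.0325). The ribonucleotide reductase subunits Rrm1 and Rrm2 at MCT 330 lay within the range of the controls: Rrm1 was at -0.48 and 0.06, -0.01 and -0.00, and 0.01, and Rrm2 at 0.64 and 1.74, 0.53 and 0.50, and 1.52. Their differences at MCT 330 were 0.22 ± 0.28 (adjusted p = 0.586) and 0.33 ± 0.47 (adjusted p = 0.615).

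Among the G1 cyclins and kinases 1 of the 6 tested fell at MCT 330 and 0 rose (24% and 9.51% of all genes), with a median difference of 0.77. Cdk4, the partner of the D-type cyclins, was at 5.26 and 5.15 in the controls, 5.21 and 4.82 at MCT 270 and 3.90 at MCT 330, a fall of 1.30 (SE 0.25, adjusted p = 0.0212). Its 3 probes disagree. The brightest, used here, fell, while the others differed by 0.12 and 0.59 at MCT 330, and the mean of the probes differed by -0.20 (adjusted p = 0.449). After quantile normalization the difference was -0.99 and did not pass (adjusted p = 0.0603), so a fall of Cdk4 transcripts as a whole was not established. The promoter of Cdk4, chr10:127063385-127063564 (plus strand), shown by the same rule, holds none of the 3 motifs.
Cdk4: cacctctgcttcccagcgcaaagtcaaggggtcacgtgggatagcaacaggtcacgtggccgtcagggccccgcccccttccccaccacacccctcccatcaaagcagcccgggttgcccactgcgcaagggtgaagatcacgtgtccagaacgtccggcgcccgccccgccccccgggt
It lies in a stretch rich in C and G with no match to capitalise.

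The D-type and E-type cyclins tested among the members, Ccnd1, Ccnd2 and Ccne1, were higher at both doses without passing. Ccnd3, a D-type cyclin outside the members, was lower at both without passing, by -0.40 at MCT 270 and -0.53 at MCT 330. Its other probe differed by -0.11 and -0.09. Ccnd1 was at -1.01 and -1.03 in the controls, -0.52 and -0.10 at MCT 270 and -0.13 at MCT 330. Its treated arrays all lay above the controls, with differences of 0.71 ± 0.20 (adjusted p = 0.188) and 0.89 ± 0.25 (adjusted p = 0.0519). Ccnd2 was at -3.32 and -3.88, -3.17 and -2.92, and -2.63, differing by 0.55 ± 0.25 (adjusted p = 0.328) and 0.97 ± 0.31 (adjusted p = 0.0696). Without the first control sample the latter was 1.25. Ccne1, the cyclin of CDK2, differed by 0.65 ± 0.23 at MCT 330 (adjusted p = 0.0931), and Cdk2 by -0.12 ± 0.20 (adjusted p = 0.681). Ccne2 and Cdk6 did not pass the filter.

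Cdc25a, the phosphatase that activates CDK2, differed from control with opposite signs at the doses. It was at -1.44 and -0.96 in the controls, -1.90 and -1.60 at MCT 270 and -0.21 at MCT 330. All MCT 270 arrays lay below the controls and all MCT 330 arrays above them. Over all genes, the former held for 25.2% and the latter for 29%. Neither difference from control passed (-0.55 ± 0.24, adjusted p = 0.316, and 0.98 ± 0.29, adjusted p = 0.0599), but the difference between the doses did, 1.53 ± 0.29 (adjusted p = 0.0305).

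Of the transcription factors, E2f1 was at -2.72 and -1.98 in the controls, -2.72 and -2.43 at MCT 270 and -2.54 at MCT 330, and the MCT 330 sample lay within the controls' range. Foxm1 was at -2.98 and -1.16, -3.24 and -3.38, and -3.66. Its treated samples lay below both controls, but the controls themselves were 1.82 apart, and the difference of -1.59 ± 0.75 at MCT 330 did not pass (adjusted p = 0.165). Without the first control sample it was -2.50, in a fit that holds no spread between the controls.

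FOXM1 is known to act on many genes of mitosis. Of the 12 mitotic cyclins, kinases and checkpoint genes and 8 genes of the spindle, centromere and chromosome structure, 19 were tested, and Aurkb did not pass the filter. Kif11 passed the filter through the control arrays alone, so its call is a description. Of the other 18, well above background on all arrays, 1 fell at MCT 330 and 0 rose, where 25.3% and 8.84% of such genes did. Their median difference was -1.40 at MCT 270 and -1.41 at MCT 330, and over all genes it was -0.02 and -0.25. In 14 of the 18 all treated arrays of both doses lay below all control arrays, as in 23% of such genes. The controls of these genes were far apart.

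In all 19 the second control sample was above the first, and in 15 by more than 1 on the log2 scale, against 48.7% and 3.16% of all genes. The median gap between the controls was 1.81. The MCT 270 samples, by contrast, differed by a median of 0.13. Against the first control sample alone the median difference of the 19 was -0.60 at MCT 270 and -0.64 at MCT 330, and against the second alone it was -2.35 and -2.51. At MCT 330 16 of the 19 were below the first control sample and 19 below the second. Without the first control sample 17 of the 19 fell at MCT 330 (22.3% of all genes did), and without the second 6 of the 19 (25.7% of all genes), so the sign held for most and the size rests on which control is used.

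**Figure D3:**
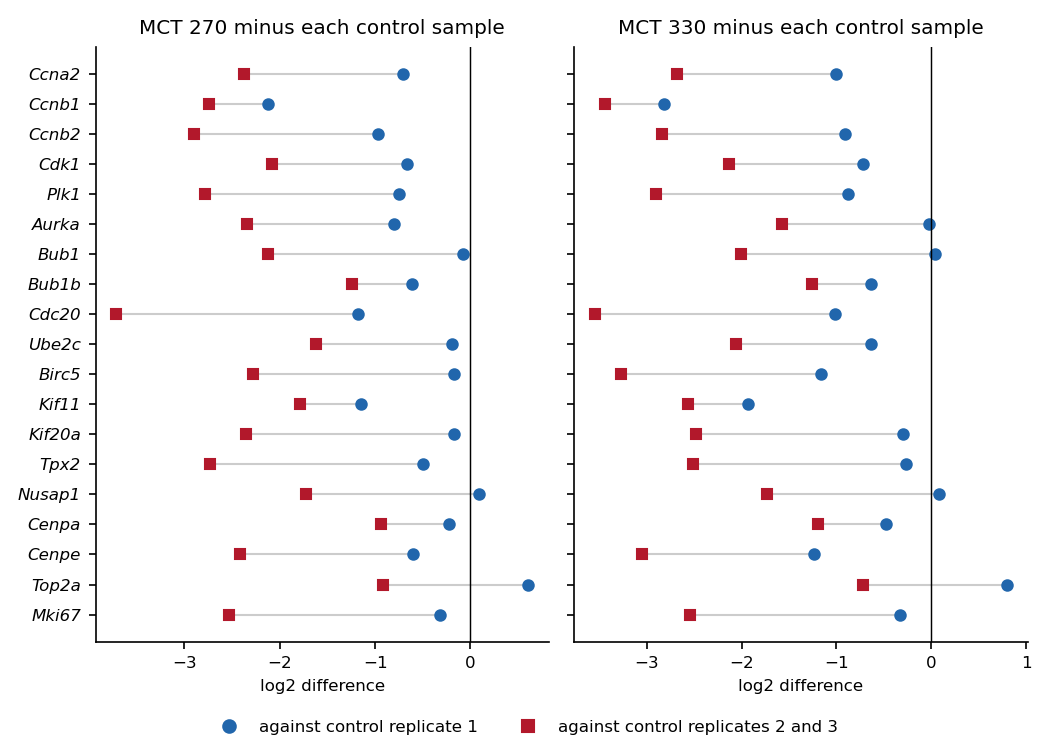
Log2 difference (x axes) of the mean at MCT 270 (left) and MCT 330 (right) from the first control sample (blue circles) and from the second (red squares) for the 19 mitotic and spindle genes tested (y axis). The red squares all lie below 0, and each blue circle lies to the right of its square, with Top2a and Nusap1 above 0 in both panels and Bub1 at MCT 330.

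Ccnb1, cyclin B1, which drives entry into mitosis with CDK1, was the member that stood apart from this spread. It was at -0.88 and -0.26 in the controls, -3.08 and -2.92 at MCT 270 and -3.70 at MCT 330. All treated samples lay more than 2 below both controls, with differences of -2.43 ± 0.26 at MCT 270 (adjusted p = 0.0809) and -3.13 ± 0.31 at MCT 330 (adjusted p = 0.00874). Its 3 probes had the same sign with different sizes, the others by -2.03 and -0.38 at MCT 330, and their mean by -1.85 (adjusted p = 0.0975).

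Ccnb2, the other B-type cyclin, was at -1.24 and 0.69 in the controls, -2.23 and -2.18 at MCT 270 and -2.15 at MCT 330, a difference of -1.88 ± 0.79 at MCT 330 (adjusted p = 0.131). Cdc20, the activator of the anaphase-promoting complex, had the widest gap between the controls, at -0.55 and 1.98, and was at -1.98 and -1.48 at MCT 270 and -1.56 at MCT 330. Its differences were -2.45 ± 0.85 (adjusted p = 0.241) and -2.28 ± 1.05 (adjusted p = 0.156). Birc5, survivin of the chromosomal passenger complex, was at -0.67 and 1.44, -0.78 and -0.91, and -1.83, a difference of -2.22 ± 0.86 at MCT 330 (adjusted p = 0.11).

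None of the other genes of this role passed. At MCT 330 Ccna2, cyclin A2, differed by -1.84 ± 0.69, Plk1, polo-like kinase, by -1.89 ± 0.83, and Cdk1 by -1.43 ± 0.60 (adjusted p from 0.102 to 0.144). Ube2c, the ubiquitin-conjugating enzyme of the anaphase-promoting complex, differed by -1.34 ± 0.60, and the spindle checkpoint kinases Bub1 and Bub1b by -0.99 ± 0.84 and -0.95 ± 0.31. Aurka, the Aurora A kinase, was lower at MCT 270 (-1.57 ± 0.54) than at MCT 330 (-0.80 ± 0.66), a difference between the doses that did not pass (0.77 ± 0.66, adjusted p = 0.452).

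Of the spindle and chromosome genes 1 of 8 fell at MCT 330, where 24% of all genes did. Kif11, the motor that pushes the spindle poles apart, was at -4.46, -3.78 and -3.87 on the control arrays, -6.21, -4.98 and -5.04 at MCT 270 and -8.21, -5.57 and -5.39 at MCT 330. All treated arrays lay below the controls, and replicate 1 of MCT 330 was far below the others and not well above background. The fall of 2.25 (SE 0.57, adjusted p = 0.0411) passed under 11 of 18 alternatives and rests on that array: without it the difference was -1.34 (adjusted p = 0.135), without the first control sample -2.56 (adjusted p = 0.0583) and without the second -1.93 (adjusted p = 0.0956).

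Cenpe, a kinetochore motor, was at -2.61 and -0.80 in the controls, -3.31 and -3.11 at MCT 270 and -3.85 at MCT 330, a difference of -2.14 ± 0.75 (adjusted p = 0.087). Tpx2, a spindle assembly factor that activates Aurora A, was at -3.81 and -1.58, -4.34 and -4.27, and -4.09 (-1.39 ± 0.91, adjusted p = 0.288). Mki67, the proliferation antigen Ki-67, was at -1.59 and 0.62 in the controls and at -1.92, -1.91 and -1.92 in the 3 treated samples, so that all treated samples shared a level just below the first control. Its difference at MCT 330 was -1.44 ± 0.90 (adjusted p = 0.271), and its other probe differed by -1.48.

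At MCT 330 Kif20a, a motor of the central spindle, differed by -1.39 ± 0.89, Cenpa, the centromeric histone H3, by -0.84 ± 0.36, and Nusap1, a spindle microtubule binder, by -0.83 ± 0.75 (adjusted p from 0.134 to 0.429). Top2a, the topoisomerase that untangles sister chromatids, was the exception in sign. It was at -4.71 and -3.19 in the controls and -3.91 at MCT 330, a difference of 0.04 ± 0.64 (adjusted p = 0.969).

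Genes of this late set are known to be read through the CHR element and CCAAT boxes. The CHR element, searched as TTTGAA or TTCGAA on either strand, was in 12 of 16 mitotic and spindle promoters, against 21.7% of all genes in the table, in 2 of 9 licensing promoters, and in 0 of 5 each of the G1 and nucleotide supply genes. A CCAAT box was in 14 of the 16, against 41.1%. In the narrower window the CHR element was in 12 of 16, against 9.87%. Promoters of this set are shown with CHR elements (also TTCAAA) and CCAAT boxes (also ATTGG) in capitals. Ccnb1, chr13:100786457-100786636 (minus strand), and Kif11, chr19:37376232-37376411 (plus strand), are the genes of largest change in their roles, and Cdc20, chr4:118437314-118437493 (minus strand), was added after its values were seen.
Ccnb1: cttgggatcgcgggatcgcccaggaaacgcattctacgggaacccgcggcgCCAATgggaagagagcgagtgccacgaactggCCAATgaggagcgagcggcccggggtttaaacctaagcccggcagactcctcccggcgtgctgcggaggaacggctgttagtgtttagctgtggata
Kif11: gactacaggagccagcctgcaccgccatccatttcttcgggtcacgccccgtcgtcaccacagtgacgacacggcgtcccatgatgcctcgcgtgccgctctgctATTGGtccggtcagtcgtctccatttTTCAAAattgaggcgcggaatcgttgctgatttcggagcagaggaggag
Cdc20: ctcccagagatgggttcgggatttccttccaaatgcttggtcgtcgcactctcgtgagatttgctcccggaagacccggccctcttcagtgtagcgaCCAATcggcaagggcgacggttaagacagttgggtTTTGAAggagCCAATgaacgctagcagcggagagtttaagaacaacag
Kif11 and Cdc20 hold 1 CHR element each, and Ccnb1, which fell most, holds none of these spellings but 2 CCAAT boxes.

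**Figure D4:**
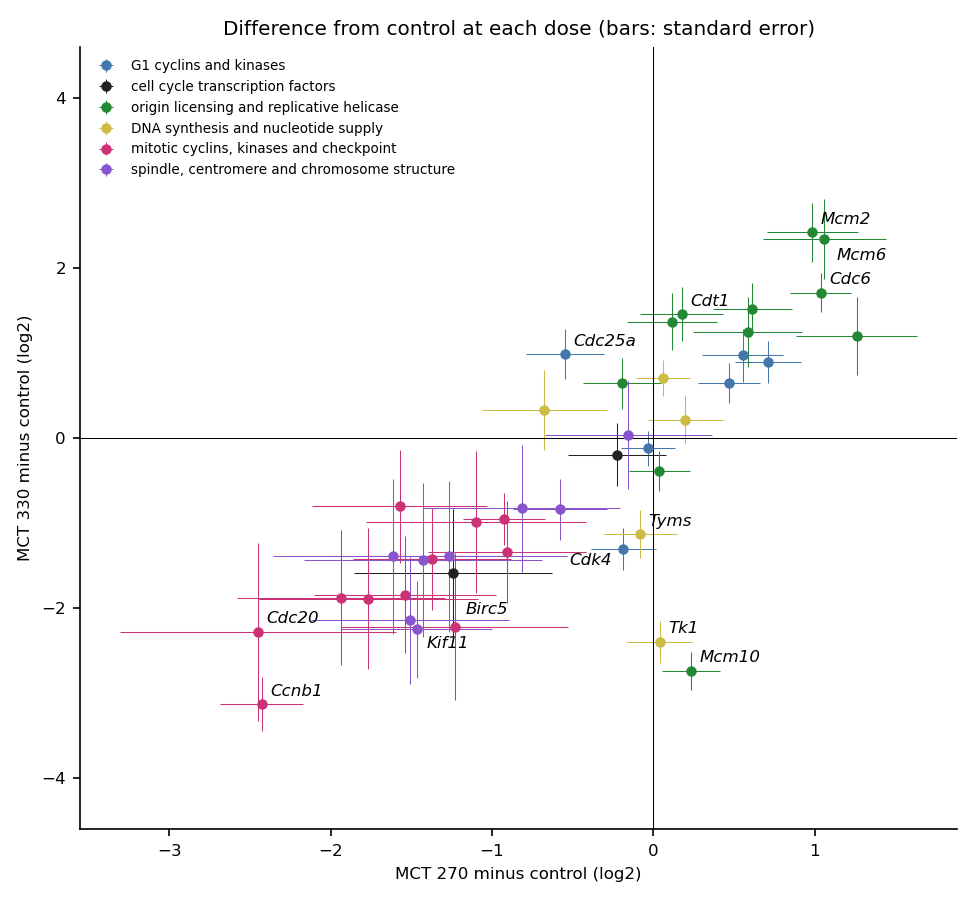
Difference from control on the log2 scale at MCT 270 (x axis) and MCT 330 (y axis) for the 43 members, with standard errors as bars and roles as colours. Most licensing genes lie at the upper right, with Mcm7 left of 0 and Gins1 below 0. The mitotic and spindle genes lie at the lower left except Top2a, which is close to 0 on both axes, and Mcm10, Tk1, Cdk4 and Tyms near 0 at MCT 270 and below 0 at MCT 330. Both axes share the control samples.

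Between the doses 3 members were higher at MCT 330 than at MCT 270 and 3 lower, where 5.03% and 17.1% of all genes were. Cdt1 (1.29 ± 0.32, adjusted p = 0.0498), Mcm2 (1.44 ± 0.35, adjusted p = 0.0481) and Cdc25a were higher. Cdk4 (-1.11 ± 0.25, adjusted p = 0.0399), Mcm10 and Tk1 (-2.43 ± 0.25, adjusted p = 0.0204) were lower. None of the 19 mitotic and spindle genes differed between the doses past the threshold, and their median difference was -0.05, against -0.23 over all genes. This comparison rests on both MCT 270 samples: without either, limma called 0 genes.

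Cell cycle brakes form a list of genes outside the members. Of the 21 tested, 5 rose and 2 fell at MCT 330, where 9.51% and 24% of all genes did. Cdkn1a was at 0.37 and 1.55 in the controls, 1.20 and 1.19 at MCT 270 and 3.44 at MCT 330, a rise of 2.48 ± 0.51 (adjusted p = 0.0247). Its 2 probes disagree in sign: the other differed by -0.78 at MCT 330, and the mean of the probes by 0.85 (adjusted p = 0.136). Ccng1, another p53 target, was at 0.03 and -0.28, 1.72 and 1.74, and 2.42, so that it stood above the controls at both doses (1.85 ± 0.18 at MCT 270, adjusted p = 0.0809, and 2.55 ± 0.22 at MCT 330, adjusted p = 0.00872). Wee1, the kinase that blocks CDK1, was at -1.24 and -1.23, 1.31 and 0.77, and 1.85, with the same course and a rise of 3.08 ± 0.28 at MCT 330 (adjusted p = 0.00872).

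Btg2, an antiproliferative p53 target, rose by 3.65 ± 0.32 at MCT 330, and Cdkn2b, the p15 inhibitor of CDK4 and CDK6, by 3.09 ± 0.31, though only 1 of 3 control arrays read it well above background. The atypical E2F repressors fell, E2f8 by 1.56 (SE 0.28) and E2f7, added after its values were seen, by 1.08 (SE 0.25). E2f8 was already low at MCT 270, at -1.03 and -0.89 against 0.28 and 0.80 in the controls (-1.50 ± 0.23, adjusted p = 0.0977). Cdkn1b, the p27 inhibitor of resting cells, differed by -0.18 ± 0.19 (adjusted p = 0.488).

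**Figure D5:**
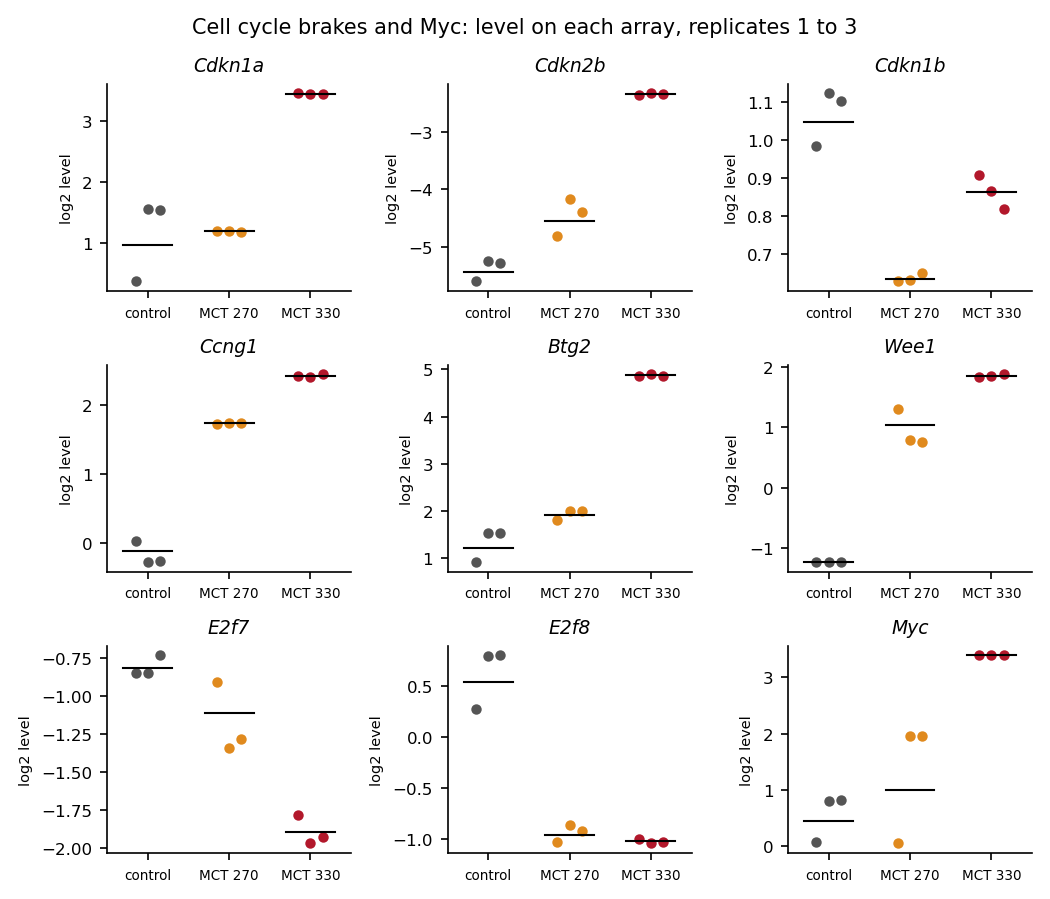
Log2 level relative to the 75th percentile of the array (y axes, each panel with its own range) of 8 brakes and Myc on the 3 arrays of each group. Points are replicates 1, 2 and 3 from left to right and bars are group means over samples. Ccng1 and Wee1 are above the controls at both doses, and Cdkn1a and Btg2 stand out at MCT 330.

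Other genes of the pathway were taken from lists of their own. Of 38 other replication genes tested, 8 rose and 3 fell at MCT 330 (9.51% and 24% of all genes), with a median difference of 0.32. Of the 35 among them that were well above background on all arrays, 6 rose and 3 fell. Pole2, a subunit of the leading-strand polymerase, rose by 1.94 ± 0.25 (well above background on 2 of 3 control arrays), Rfc3 of the clamp loader by 1.41 ± 0.28 and Chaf1a of the histone chaperone CAF-1 by 1.39 ± 0.30. Clspn, claspin of the replication checkpoint, was not well above background on any control array. Counted as for Cdc6, it was 2.42-fold higher (limma adjusted p = 0.0113). It passed the filter through its MCT 330 arrays alone, so its call is likewise a description. Prim2 of the primase fell by 2.10 (SE 0.27). Of 36 other mitosis genes tested, 1 rose, Nek6 (1.32 ± 0.25), and 4 fell, among them Kif4 by 2.72 (SE 0.32) and Spc24 by 1.67 (SE 0.32), with Mad1l1 by 1.40 (SE 0.25) and Ncaph by 0.97 (SE 0.24). That share of falls lies below the 24% of all genes. Kif4 was well above background on 8 of the 9 arrays. Of the 31 genes of the list that were so on all arrays, 1 rose and 3 fell, against 8.84% and 25.3% of such genes. The list's median difference was -0.59. Of 17 other G1 and growth response genes, 2 rose (9.51% of all genes), Cdk7 (1.30 ± 0.25) and Ccnl1 (0.84 ± 0.20), and Tfdp2 fell by 1.30 (SE 0.25; 24% of all genes fell). The other probe of Cdk7 differed by -1.37, so its probes disagree in sign, and their mean differed by -0.04 (adjusted p = 0.914). Myc was at 0.07 and 0.81, 0.05 and 1.96, and 3.39, a difference of 2.95 ± 0.84 that did not pass (adjusted p = 0.0534).

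Markers of other cell types, some of them dividing, also differed between samples. At MCT 330, where 24% of all genes fell and 9.51% rose, 6 of 8 markers of sinusoidal endothelium and 5 of 7 of Kupffer cells fell and 0 rose. The endothelial markers summed to 28.5 to 30.7 on the control arrays, 11.5 to 13.3 at MCT 270 and 8.85 to 9.08 at MCT 330. The Kupffer markers summed to 21.3 to 25.1, 13.3 to 14.7 and 9.05 to 9.22, so both sums were already lower at MCT 270. Of the 8 stellate cell markers 3 fell and 1 rose. Of 7 markers of monocytes and recruited macrophages 5 rose and 0 fell, but 3 of those were not well above background on all control arrays. Their sum, led by Fn1 (-0.08), was 100.2 to 126 in the controls and 113.1 to 119.7 at MCT 330. Of 5 cholangiocyte markers 1 rose and 0 fell, and of 6 B and plasma cell markers 2 rose and 1 fell. Among those well above background on all arrays 0 and 1 rose. The mature neutrophil list summed to 8.63 to 11.6 in the controls and 39.9 to 41.2 at MCT 330, with 5 of 6 higher, of which S100a8 and S100a9 were well above background on all arrays. Csf3r led the sum in the controls and differed by -0.29 at MCT 330 without passing, and S100a9 led it at MCT 330.

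The summed level of 7 erythroid precursor markers was 15.4 on the array of the first control sample and 40.8 to 41.4 on those of the second, 27.3 to 51.3 at MCT 270 and 138 to 150.1 at MCT 330. That sum was led by Hba-a1, at 2.95 and 5.12 in the controls, whose difference at MCT 330 did not pass (3.08, adjusted p = 0.071). None of the 7 rose and 2 fell, Epor (-2.43) and Klf1 (-0.99), and Slc4a1 and Alas2 differed by -0.65 and -0.53. Alas2 (2.63 and 2.16) and Klf1 (-2.23 and -2.73) were lower in the second control sample, and Gata1 was not well above background on any control array. The list of dividing neutrophil precursors went from at least 8.46 in the controls to at most 5.62 at MCT 330. Elane led it (-0.87, adjusted p = 0.0637), 0 of 8 rose and 2 fell, Ctsg and Mpo (Mpo not well above background at MCT 330), while Ngp, Ltf and Prtn3 had positive differences that did not pass. T cell markers summed to 21.4 to 26.3 in the controls, 9.98 to 12.3 at MCT 270 and 7.03 to 7.62 at MCT 330, a sum led by Cd4 (-1.85). Of the 7, 2 fell, Cd4 and Cd3e, and Cd3d and Cd8a differed by 0.59 and 0.10 without passing. The genes of these lists named here were chosen after their values were seen, and the part of these cells in the members' values was not tested.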

How the data were processed

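Liver mRNA was measured on 9 single-colour Agilent arrays. The authors extracted an intensity for each spot with Agilent Feature Extraction (11.0.1.1 in the submitters' processing notes), and the processed intensity is background-subtracted, per the file headers. The log2 values were computed here as log2 processed intensity minus the log2 of the array's 75th percentile. Control spots and outlier flags were left out. Replicate 1 of MCT 330 also lost 173 spots that differed from both other arrays of its group by more than 1 log2. Only spots well above background on all arrays of that group were removed this way, so Kif11, dim on replicate 1, was kept. Repeated spots were averaged, a probe was kept if every array of some group read it well above background, and the brightest probe stood for a gene. Of 33258 transcript identifiers, 21464 matched a RefSeq symbol, and 12195 probes kept the file's name. Names and promoter sequences are from RefSeq (GRCm38.p6).

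Arrays within the spot noise (ratio under 1) were averaged into 5 samples and fitted with limma 3.58.1 in R 4.3.3, Benjamini-Hochberg adjusted p under 0.05. The labels number each array as a mouse of its own; since several arrays could not be told from repeats, p-values measure only the spread between these samples, which may be technical. The fit was also run on simulated independent samples with the same spread for every gene. That run does not test the unequal spreads, the repeats or the scans of these data. Members and lists were chosen with earlier results of these data known. Named with sample values are the 3 largest changes of each role at either dose, members moving oppositely at the doses, up to 6 called genes per other list, and Cdkn1a, Cdkn1b, Ccng1, Myc and Wee1; promoters are those of the largest change per role. The alternatives were quantile normalization, normexp (offset 50) with quantile normalization, other filters, probe rules, sample units, the scan as a block and each sample left out. A called gene of another list is not reported here.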

Additional observations from a re-analysis of the deposited data

Results flagged for a closer look

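Some members differed between the doses, Cdc25a and Mcm10 with opposite signs beyond the controls and Tk1 in size. No difference from control passed at MCT 270, so a change in direction was not established. Cdc25a differed from control by -0.55 at MCT 270 and 0.98 at MCT 330, a difference between the doses of 1.53 (limma adjusted p = 0.0305), with all arrays of each dose beyond all controls on opposite sides. Mcm10 differed by 0.23 and -2.74, a difference of -2.97 (adjusted p = 0.0204), likewise with no array overlapping the controls. Over all genes, all MCT 270 arrays lay above all controls in 23.1% and below them in 25.2%. For the MCT 330 arrays these shares were 29% and 50.1%. Tk1 differed by 0.04 and -2.40, a difference of -2.43 (adjusted p = 0.0204), with the MCT 270 arrays among the controls. Each rests on a single MCT 330 sample whose arrays were in other scans, and without either MCT 270 sample no gene passed in this comparison.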

How the results depend on the processing

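Of the 12 members called at MCT 330, 0 changed sign under any alternative, and Mcm2, Mcm10 and Tk1 passed under all 19. Of the 43 members, 7 changed sign at MCT 330 under some alternative and 13 at MCT 270, none of them called in the main values. Genes called at MCT 270 numbered 0, and 504 with normexp (members 1, other pathway genes 3), 409 for probes well above background on all 9 arrays (1 and 4), 9564 with the 9 arrays as separate samples (28 and 60), 4730 with the scan as a block (9 and 29) and 1776 with MCT 330 replicate 1 as its own sample, an alternative chosen after seeing the data (1 and 9). Within the scan that holds both groups, also chosen after seeing the data, 0 passed. Genes called at MCT 330 numbered 8300 (members 12, other pathway genes 26), and 3751 without the filter on dim probes (5 and 10), 18020 with separate arrays (38 and 79) and 13772 with MCT 330 replicate 1 on its own (26 and 52). Between the doses 5483 genes were called (6 and 11), 0 without the filter (0 and 0), 16085 with separate arrays (17 and 57), 11279 with MCT 330 replicate 1 on its own (13 and 31), and 3 members after quantile normalization.

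No pairing by replicate number was seen: same-numbered arrays' deviations correlated by -0.041 to 0.0406. Since several arrays could not be told from repeats, these values could not settle whether samples were paired. With the number as a replicate block over 9 arrays, 9362 genes, 25 members and 60 other pathway genes were called at MCT 270, 17889, 37 and 80 at MCT 330, and 15936, 16 and 60 between the doses. Leaving out a sample or array in turn gave 0 to 0 genes and members at MCT 270; at MCT 330 4987 to 8749 genes, 11 to 27 members and 19 to 44 other pathway genes; between the doses 0 to 7332 genes, 0 to 7 members and 0 to 17 other pathway genes. A fit without 1 control sample takes its spread from the MCT 270 samples alone, so its calls hold no spread between the controls. The members' median ranged from -0.79 to -0.12 at MCT 270 and from -1.2 to -0.2 at MCT 330, where it was -0.31 with normexp. The causes were not tested. With 5 samples, precision is limited by their number, and dim probes such as Cdc6, Orc1 and Kif11 by signal over background.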
